A study of Mus musculus with 101 samples.

Results

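Primordial germ cells (PGCs) of F1 XX mouse embryos whose dams had taken 0.2 mg/kg-day benzo[a]pyrene (BaP), a polycyclic aromatic hydrocarbon formed by incomplete combustion, were compared with PGCs of F1 XX embryos whose dams had taken the vehicle alone. The members were all embryos labelled F1, female and with either of these treatments, which gave 5 exposed and 5 vehicle embryos, or 10 of the 101 samples of the series. All were OG2 mice, which carry a transgene that drives EGFP from the promoter and distal enhancer of Pou5f1, on a C57BL/6J background. Pregnant F0 dams received sesame oil, with or without BaP, by mouth every day from E6.5 to E11.5, and the embryos were collected at E13.5. Embryos were sexed by the shape of the gonad, EGFP-positive cells were sorted by FACS from the gonad and its attached mesonephros, and oligo(dT)-primed cDNA was sequenced as paired ends of 75 nt without a mark of strand. For comparison, the text also uses 5 F1 XX embryos at 2 mg/kg-day and 2 at 0.033 mg/kg-day, and 6 F1 XY embryos at 0.2 mg/kg-day with their 5 XY vehicle controls, all of the same strain, dosing days and age. It further uses F2 and F3 OG2 embryos at E13.5 whose F0 ancestor was dosed from E6.5 to E15.5, namely 3 F2 XX embryos at 0.2 mg/kg-day against 6 vehicle embryos, and 2 F3 XX embryos at 0.2 mg/kg-day against 6. The sort selected cells by the activity of Pou5f1 regulatory elements, and Pou5f1 itself is turned down when XX germ cells become oocytes. Each of the 10 embryos came from a different dam.

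At this age XX germ cells leave the mitotic cycle and enter meiotic prophase, when BMP and retinoic acid signals induce Stra8 and the genes of the synaptonemal complex while pluripotency genes are turned down, and XY germ cells instead respond to Nodal and prepare for mitotic arrest. BaP is a ligand of the aryl hydrocarbon receptor, which induces CYP1 enzymes that convert it to reactive products. These products bind DNA as bulky adducts, which nucleotide excision repair removes and which can activate p53, and they are also conjugated with glutathione.

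The reads behind the deposited values could be recovered, and numbered 34.9, 64.1, 7.52, 6.65 and 7.26 M (1 M is 1000000 reads) in exposed embryos C4228.3, C4242.1, C4322.4, D2506.2 and D2510.2. In vehicle embryos C4232.9, C4321.6, C4605.2, D1961.1 and D2580.1 they numbered 54.7, 8.25, 6.90, 9.75 and 7.38 M. All values per embryo in the text follow this order. Exposed embryos C4228.3 and C4242.1 and vehicle embryo C4232.9 thus had far deeper libraries than the other 7 embryos, which lay between 6.65 and 9.75 M. A single read was 0.0158 to 0.0347 normalized counts in the deep libraries and 0.0899 to 0.179 in the others, so that values under 1 rested on few reads in the shallower libraries.

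Germ cell markers were abundant in every embryo. Ddx4, an RNA helicase of the germ line, was at 315, 651, 510, 426 and 249 normalized counts in the exposed embryos and 557, 561, 586, 530 and 399 in vehicle embryos. The RNA-binding protein gene Dazl was at 1481, 2189, 1259, 1116 and 883 against 2251, 1472, 1406, 1298 and 1318, and Dppa3, a gene of early germ cells, at 2244, 1704, 1393, 1545 and 2947 against 1935, 1530, 1892, 1405 and 2037. The groups overlapped for all 3 genes. Of 8 Y-linked genes, 7 were at 0 in all 10 embryos, and Uty had 2 reads in vehicle embryo C4321.6.

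No gene passed the test across all genes. Of 13382 genes tested with limma, 0 (0%) had an adjusted p under 0.05, and the smallest adjusted p was 0.993. At an unadjusted p under 0.05 there were 176 genes (1.32%), of which 90 (0.673%) were higher and 86 (0.643%) lower at 0.2 mg/kg-day, and 114 (0.852%) of the 176 also differed by at least 1.5-fold. On the recovered reads, edgeR's quasi-likelihood test, its likelihood ratio test and DESeq2 also called 0 genes after adjustment, and 230, 248 and 238 at an unadjusted p under 0.05. The median log2 difference over all genes was -0.01, with 48.8% of genes higher in exposed embryos. The split of the genes at an unadjusted p under 0.05 moved with the scaling, the test and the filter. More genes were higher with upper quartile scaling (120 higher, 39 lower), edgeR's quasi-likelihood test (171, 59), its likelihood ratio test (201, 47) and DESeq2 with its own size factors (174, 64). More were lower with a minimum mean of 5 (19 higher, 67 lower), without the deep libraries (96, 159) and with depth class as a term (97, 150).

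The precision of the comparison set what could be seen. The median standard error was 0.28 on the log2 scale, which gives a 95% interval of ±0.59, or 1.51-fold in either direction, and for 73.8% of the genes the whole interval lay within 2-fold. Single libraries carried much of the count at an unadjusted p under 0.05, while 0 genes passed after adjustment by limma with any 1 of the 10 embryos left out. That count was 724 without vehicle embryo C4232.9, 507 without exposed embryo C4322.4 and 268 without exposed embryo D2506.2. It was 102 without exposed embryo C4228.3, 84 without vehicle embryo C4605.2 and 104 without vehicle embryo D1961.1, and left out 1 at a time the other 4 embryos moved it by less than 1.5 times.

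The groups did not overlap for 41 genes (0.306% of those tested), 17 higher and 24 lower at 0.2 mg/kg-day. Among the 8417 genes with a mean of at least 5 normalized counts these numbered 25, with 4 higher and 21 lower. With a minimum mean of 5 in the fit 41.9% of all genes tested were higher, beside 48.8% in the main fit. No conclusion on direction is drawn from the split. Of the 4 higher, 2 are the globin genes Hbb-b1 and Hbb-b2, which have identical values and reach this mean through exposed embryos C4242.1 and D2510.2. The 4 higher and the 12 lower with the smallest p are described here. They include the growth factor receptor gene Kit, the p53 inhibitor gene Mdm4 and the helicase gene Blm among the lower genes and Asb4 among the higher. Apart from the globin genes Hbb-b1 and Hbb-b2 the largest difference of the set was that of Bbs12, and each gene named and tested in this comparison had an adjusted p of at least 0.993 by limma. The choice of genes by this rule fixes that their groups do not overlap.

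Asb4 encodes a substrate receptor of a ubiquitin ligase (chr6:5383386-5433022, GRCm38). It was at 16.5, 14.4, 15.7, 14.0 and 13.8 normalized counts in the exposed embryos and 9.71, 12.4, 9.24, 12.8 and 10.6 in vehicle embryos. Every exposed embryo lay above the highest vehicle embryo, and the log2 difference was 0.43 (SE 0.18, n = 5 and 5). The uncharacterized gene 1600014C10Rik was at 12.6, 13.2, 13.46, 11.98 and 19.13 against 11.9, 9.60, 10.3, 11.8 and 11.4, where exposed embryo D2510.2 stood apart and exposed embryo D2506.2 was close to the highest vehicle embryo. The adult beta-globin genes Hbb-b1 and Hbb-b2, which had identical values in all 101 samples, are the other 2 higher genes and are described with the erythroid markers.

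Kit encodes the receptor of stem cell factor, which PGCs need to survive and migrate (chr5:75574916-75656722). It was at 32.0, 40.2, 36.3, 39.7 and 41.8 normalized counts in the exposed embryos and 45.9, 46.2, 60.3, 51.9 and 48.3 in vehicle embryos. The exposed embryos formed a narrow range just under the vehicle embryos, with deep library C4228.3 the lowest, and the log2 difference was -0.40 (SE 0.17). Mdm4, which encodes a protein that binds and inhibits p53 (chr1:132959484-133030561), was at 41.4, 58.4, 53.3, 55.8 and 49.9 against 64.1, 61.9, 78.6, 62.8 and 73.0. Deep library C4228.3 was again the lowest exposed embryo, and the difference was -0.40 (SE 0.15).

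Agps encodes a peroxisomal enzyme of ether lipid synthesis (chr2:75832177-75931350). Its values of 25.7, 27.1, 25.2, 24.1 and 19.7 in exposed embryos lay under the 33.8, 31.4, 32.7, 32.7 and 30.7 of vehicle embryos, which differed little among themselves (SD 1.21). Blm, the helicase that resolves recombination intermediates (chr7:80454733-80535119), was at 20.1, 21.7, 22.3, 16.1 and 22.9 against 26.7, 26.9, 28.5, 26.6 and 25.7. The vehicle embryos were again close together (SD 1.03), and the log2 differences were -0.41 (SE 0.15) for Agps and -0.39 (SE 0.17) for Blm. Epb4.1l4b, which encodes a FERM-domain protein of the cell cortex (chr4:56991972-57143437), was at 8.33, 9.71, 11.53, 10.6 and 10.01 against 12.2, 14.4, 13.7, 16.8 and 15.8. It had the smallest p of these genes, with a log2 difference of -0.52 (SE 0.17), and the deep libraries C4228.3 and C4232.9 were the lowest of their groups.

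Casp2, which encodes a caspase that takes part in oocyte death, was at 14.0, 13.9, 14.9, 11.98 and 12.9 normalized counts in exposed embryos and 15.7, 15.4, 24.9, 17.4 and 16.0 in vehicle embryos. The gap between the groups was narrow, and vehicle embryo C4605.2 stood apart. Chd4, the ATPase of the NuRD chromatin remodelling complex, was at 21.1, 31.7, 29.6, 31.1 and 23.2 against 32.4, 39.7, 35.0, 33.6 and 33.6, with 3 exposed embryos just under the lowest vehicle embryo. The log2 differences were -0.37 (SE 0.18) for Casp2 and -0.36 (SE 0.18) for Chd4. The other lower genes were Bbs12 (-0.63, SE 0.25), a chaperonin-like gene of the Bardet-Biedl syndrome, Sgol2 (-0.47, SE 0.23), the shugoshin that protects centromeric cohesin in meiosis, Wac (-0.40, SE 0.18), Dlg5 (-0.40, SE 0.19), which encodes a scaffold protein, and Zdhhc5 (-0.36, SE 0.16), which encodes a palmitoyltransferase. Reads of Bbs12, Zdhhc5, Sgol2 and 1600014C10Rik cannot be told apart by strand from those of Cetn4, Med19, Kctd18 and D530033B14Rik, whose exons overlap theirs on the opposite strand, so these values are uncertain. The same holds for Wac, Sycp3, Pou5f1, Drap1, Tdrkh, Acvr2a, Tiparp, Diablo, Bid, Ccl25, Ccl27a, Gng13 and Alas2, whose exons also overlap a gene of the opposite strand, and for Dlg5, Zglp1 and Bax, which overlap a gene of the same strand.

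**Figure D1:**
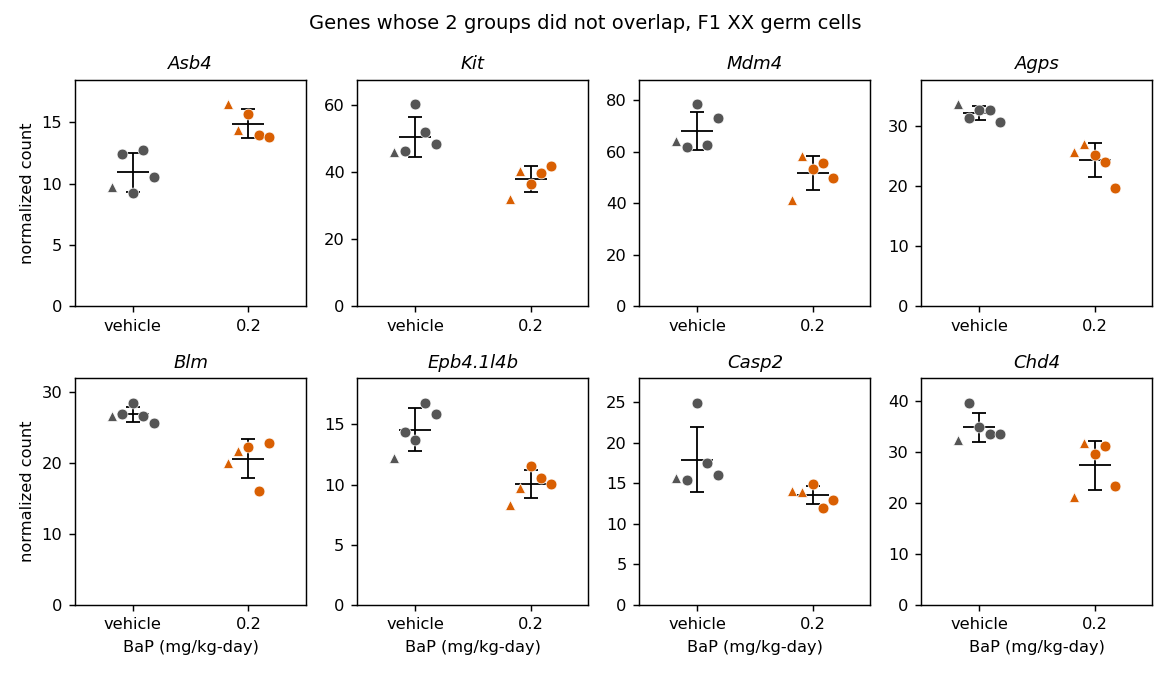
Normalized counts (y axis, from 0) of 8 genes whose groups did not overlap, in 5 vehicle and 5 exposed F1 XX embryos (0.2 mg/kg-day BaP). Points are embryos, triangles the deep libraries, and bars the mean with SD. For Kit the exposed embryos sit between 32.0 and 41.8 and the vehicle embryos between 45.9 and 60.3.

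The genes with the smallest p over the whole table were Vstm2a and Mgat5, chosen after their values were seen. Vstm2a was at 1.77, 1.96, 0.792, 1.41 and 0.715 normalized counts in exposed embryos and 0.467, 0.216, 0.268, 0.270 and 0.555 in vehicle embryos, and Mgat5, which encodes a glycosyltransferase that branches N-glycans, at 1.88, 0.887, 1.02, 1.13 and 1.43 against 0.297, 0.108, 0.402, 0.360 and 0.694. In both genes all exposed embryos lay above all vehicle embryos, with log2 differences of 1.06 (SE 0.28) and 1.03 (SE 0.29). The vehicle means of 0.355 and 0.372 lay under the minimum mean for a test, so that both genes were tested because of higher values in other embryos, and the vehicle levels were 33 reads of Vstm2a and 27 of Mgat5 over all 5 embryos. In addition, exons of Mgat5 overlap Tmem163 on the opposite strand.

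Meiotic genes lay higher on the median at 0.2 mg/kg-day, while single libraries spanned a range wider than the difference between the groups. Of 32 genes of meiotic entry and prophase tested, 27 were higher in exposed embryos and 0 were at an unadjusted p under 0.05, with a median log2 difference of 0.30 against -0.01 over all genes. The mean log2 level over the list was 6.17, 6.21, 4.99, 5.09 and 5.18 in exposed embryos and 6.39, 5.87, 4.22, 5.05 and 4.74 in vehicle embryos. The deep libraries C4228.3, C4242.1 and C4232.9 were the 3 highest of the 10, and vehicle embryo C4605.2 was the lowest. The median of the list was 0.01 without C4605.2, 0.52 without C4232.9, 0.14 with depth class as a term and 0.15 without the deep libraries, and the part of depth and of these libraries in it was not tested further.

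Stra8, the gatekeeper of meiotic entry that retinoic acid and BMP signals induce, was at 488, 646, 405, 417 and 403 normalized counts in exposed embryos and 743, 617, 112, 450 and 313 in vehicle embryos. The exposed embryos lay inside the range of the vehicle embryos, of which C4605.2 was low, and the log2 difference was 0.31 (SE 0.45), or -0.12 without C4605.2. Sycp3, which encodes a protein of the lateral element of the synaptonemal complex, was at 4088, 1931, 378, 529 and 1122 against 2954, 864, 340, 577 and 465. Meiob, a single-strand DNA-binding factor of meiotic recombination, was at 105, 42.6, 10.9, 11.0 and 13.2 against 64.7, 22.8, 4.02, 11.8 and 6.66. For both genes the deep libraries were the highest of each group and the groups overlapped, with log2 differences of 0.59 (SE 0.59) for Sycp3 and 0.75 (SE 0.75) for Meiob, the highest of the list. Among the other genes of the complex and of meiotic recombination, the difference was 0.70 (SE 0.61) for Tex12, 0.45 (SE 0.60) for Sycp2, 0.37 (SE 0.32) for Syce2, 0.29 (SE 0.42) for Syce3, 0.17 (SE 0.29) for Syce1, 0.05 (SE 0.37) for Tex11 and -0.09 (SE 0.34) for Tex15. It was 0.16 (SE 0.33) for the meiotic cohesin gene Smc1b and 0.44 (SE 0.51) for the cyclin gene Ccnb3. The sign turned without the deep libraries for Sycp2 (-0.07), Tex11 (-0.07) and Smc1b (-0.01). It also turned for Syce1 (-0.01 without C4605.2), Syce3 (-0.01 without D2510.2) and Tex15 (0.03 without D2506.2).

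Pluripotency genes showed the opposite order. Of 21 tested, 16 were lower in exposed embryos and 0 were at an unadjusted p under 0.05, with a median log2 difference of -0.30, which was -0.09 without vehicle embryo C4605.2, -0.17 without the deep libraries and -0.16 with depth class as a term. Pou5f1, chosen after its values were seen, was at 11.6, 14.5, 36.0, 67.5 and 83.5 normalized counts in exposed embryos and 10.9, 28.5, 82.4, 52.5 and 90.4 in vehicle embryos. Its lowest values were in the 3 deep libraries and its groups overlapped over nearly their whole range. Dppa4, a chromatin factor of pluripotent cells, was at 106, 202, 261, 274 and 236 against 163, 248, 439, 282 and 362 (log2 -0.46, SE 0.28), and Dppa5a and Tcl1 differed by 0.08 (SE 0.34) and -0.22 (SE 0.25). The deep libraries thus held high meiotic and low pluripotency levels in both groups.

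**Figure D2:**
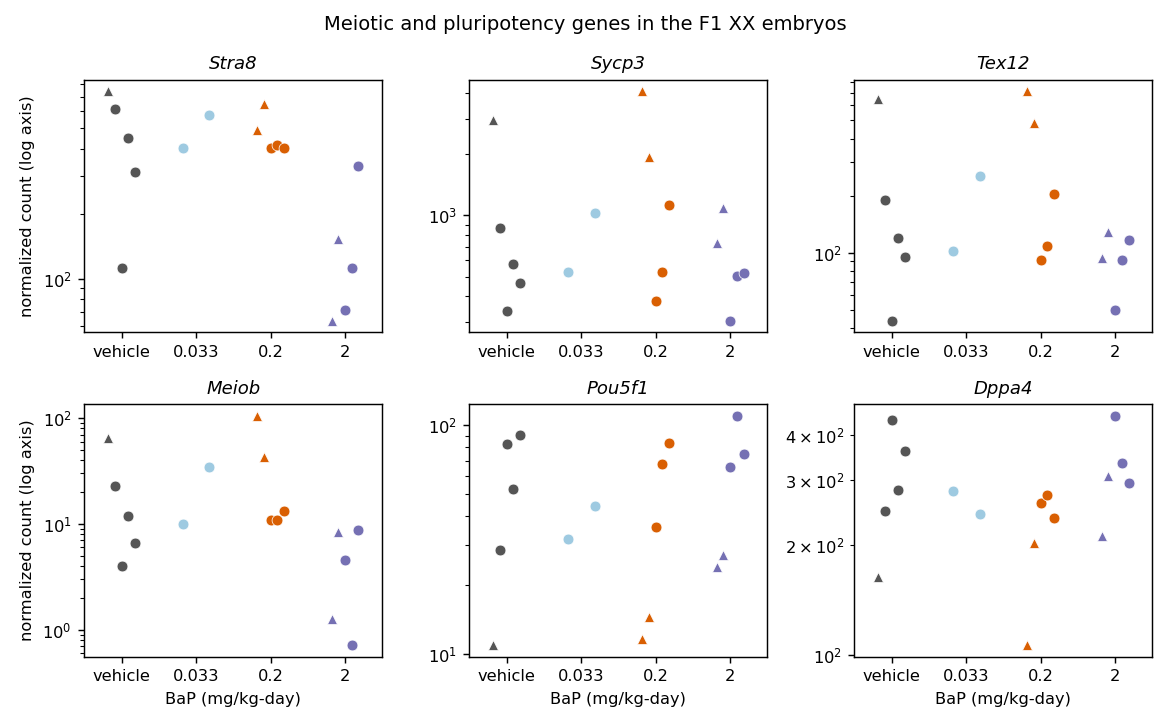
Normalized counts (log y axis) of 4 meiotic genes and 2 pluripotency genes in F1 XX embryos by BaP dose, with 5 vehicle embryos and 2, 5 and 5 embryos at 0.033, 0.2 and 2 mg/kg-day. Points are embryos and triangles deep libraries. At 0.2 mg/kg-day Stra8 lies between 403 and 646, inside the vehicle range of 112 to 743.

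Lists for the signals that set the fate of XX and XY germ cells held members in both directions. For the BMP response and oogenic factors the median log2 difference was 0.03 over 21 genes, for retinoic acid signalling 0.12 over 13, for Nodal and activin signalling 0.02 over 23 and for male germ cell fate with the piRNA pathway 0.06 over 18, and 0 genes of these 4 lists were at an unadjusted p under 0.05. These medians moved with single embryos, from -0.07 (without C4605.2) to 0.18 (without C4232.9) for BMP, from 0.01 (without C4322.4) to 0.20 (without C4228.3) for retinoic acid, from -0.06 (without D2580.1) to 0.08 (without D2506.2) for Nodal and from -0.01 (without C4242.1) to 0.15 (without C4322.4) for the male list. Without the deep libraries they were 0.18 for BMP and 0.28 for retinoic acid. The count of 0, by limma, rose to 2 for BMP without C4232.9 and to 1 for the male list without C4322.4. With edgeR's quasi-likelihood test it was 1 for Nodal, and it stayed at 0 for retinoic acid in all alternatives. Zglp1, a transcription factor of oogenic fate downstream of BMP, was at 129, 134, 137, 146 and 193 normalized counts in exposed embryos and 167, 128, 110, 141 and 186 in vehicle embryos, and Id3, a direct BMP target, at 237, 342, 330, 354 and 293 against 425, 386, 277, 301 and 388. Crabp1, a retinoic acid-binding protein gene, was at 90.7, 138, 113, 128 and 150 against 107, 117, 91.5, 99.8 and 120. Groups overlapped for all 3 genes. Other abundant members differed by 0.10 (SE 0.22) for Id2, 0.30 (SE 0.28) for Crabp2, 0.32 (SE 0.25) for Drap1, -0.38 (SE 0.30) for Smad2, 0.09 (SE 0.25) for Tgif1, 0.03 (SE 0.19) for Fkbp6, 0.09 (SE 0.20) for Tdrkh and 0.29 (SE 0.24) for Asz1.

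Tdgf1, Lefty2 and Acvr1b of the Nodal pathway had few reads. The co-receptor gene Tdgf1 was at 0.556, 0.174, 0, 0.705 and 0 normalized counts in exposed embryos and 0.106, 0.216, 0.268, 0 and 0 in vehicle embryos, and the Nodal antagonist gene Lefty2 at 0.521, 0.190, 0.113, 0.141 and 0 against 0.212, 0, 0.670, 0.0899 and 0.278. Tdgf1 had 32 reads over the exposed and 9 over the vehicle embryos, and Lefty2 had 29 and 18. The size of difference that could be detected from so few reads was not tested. Acvr1b, which encodes a type I activin and Nodal receptor, was at 0.729, 0.396, 0.339, 1.55 and 1.79 against 0.467, 0.324, 0.268, 0.360 and 0.139, where D2506.2 and D2510.2 were the high exposed embryos and the groups overlapped (log2 0.74, SE 0.37). The type II receptor genes Acvr2a and Acvr2b differed by 0.09 (SE 0.28) and -0.34 (SE 0.45).

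Targets of the aryl hydrocarbon receptor gave no difference past the test. Of 9 genes of this battery tested, 0 were at an unadjusted p under 0.05 and the median log2 difference was -0.11, or 0.04 under upper quartile scaling, -0.27 without the deep libraries, and from -0.20 (without C4242.1) to 0.00 (without C4321.6) with 1 embryo left out. Cyp1a1, the enzyme gene most used as a readout of the receptor, was at 0.868, 0.143, 0.678, 0.423 and 0.536 normalized counts in exposed embryos and 0.319, 0.108, 0.536, 0.629 and 0.139 in vehicle embryos, 46 and 28 reads in all, and was below the minimum mean for a test. Cyp1b1, of the same family, was at 2.15, 0.998, 2.26, 1.97 and 2.15 against 1.30, 1.08, 3.21, 1.44 and 1.39 (log2 0.18, SE 0.31). The groups overlapped in both genes, which were chosen after their values were seen, and the last dose had been given before the day of collection. Among the abundant members the difference was -0.11 (SE 0.29) for Tiparp and -0.24 (SE 0.21) for Nfe2l2.

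Most genes of a p53 list lay slightly lower at 0.2 mg/kg-day. The list holds p53 targets and also Trp53 itself, its relatives Trp63 and Trp73 and the inhibitor gene Mdm4. Of 31 tested, 24 were lower with a median log2 difference of -0.17, beside -0.01 over all genes, and the median was -0.11 without vehicle embryo C4605.2. Of these genes 1, Mdm4, was at an unadjusted p under 0.05, beside 1.32% of all genes tested. This count ran from 1 to 3 over the alternatives, and was 3 without vehicle embryo C4321.6. Mdm2, the ubiquitin ligase that degrades p53, was at 43.6, 60.3, 71.0, 58.5 and 46.9 normalized counts in exposed embryos and 60.6, 65.3, 83.7, 72.7 and 60.9 in vehicle embryos, and Bax, which drives mitochondrial cell death, at 98.2, 144, 157, 163 and 155 against 154, 159, 195, 156 and 200. All exposed embryos but C4322.4 lay under the vehicle embryos for Mdm2, and the groups overlapped for both genes, with differences of -0.30 (SE 0.18) and -0.28 (SE 0.17). Trp53inp1 differed by -0.12 (SE 0.20).

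For repair of bulky adducts and crosslinks the median log2 difference was -0.10 over 39 genes, or -0.18 without vehicle embryo D2580.1 and -0.02 under upper quartile scaling. Of these genes 1, Rad23b, was at an unadjusted p under 0.05, beside 1.32% of all genes tested, and this count ran from 0 to 2 over the alternatives. Rad23b, which stabilizes the damage-recognition protein XPC, was at 9.27, 14.2, 13.9, 17.2 and 19.13 normalized counts in exposed embryos and 17.04, 17.6, 19.96, 22.6 and 20.8 in vehicle embryos. Only D2506.2 and D2510.2 of the exposed embryos reached the vehicle range (log2 -0.43, SE 0.19). Cetn2, Gtf2h5 and Rad18 differed by 0.50 (SE 0.37), 0.35 (SE 0.26) and -0.03 (SE 0.24). The BCL2 family and caspases had a median of -0.05 over 22 genes, or 0.04 under upper quartile scaling, -0.13 without the deep libraries and 0.02 without vehicle embryo C4232.9, with 0 at an unadjusted p under 0.05, and its abundant members Diablo and Bid differed by -0.05 (SE 0.18) and -0.07 (SE 0.23).

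Of 36 genes of glutathione metabolism and oxidant defence, 1, Mgst1, was at an unadjusted p under 0.05, beside 1.32% of all genes tested, and this count ran from 0 to 4 over the alternatives. The median was -0.02, or 0.07 under upper quartile scaling, and ran from -0.06 (without C4322.4) to 0.04 (without C4242.1). Mgst1, a membrane-bound glutathione transferase, was at 7.22, 13.9, 6.90, 4.93 and 8.94 normalized counts in exposed embryos and 5.65, 3.99, 3.75, 4.14 and 3.19 in vehicle embryos. Of the exposed embryos 4 lay above all vehicle embryos and D2506.2 lay inside their range, with a log2 difference of 0.88 (SE 0.27). The abundant peroxidase genes Prdx1, Gpx1 and Gpx4 differed by 0.21 (SE 0.24), 0.02 (SE 0.23) and 0.11 (SE 0.19).

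Of 20 chemokine, cytokine and receptor genes tested, 15 were higher in exposed embryos, with a median log2 difference of 0.24, or 0.15 without exposed embryo C4242.1 and 0.12 with a minimum mean of 5. By limma 0 were at an unadjusted p under 0.05, and by edgeR's quasi-likelihood test 1 was. Ccl2, a chemokine that attracts monocytes, was at 0.208, 4.15, 0, 1.83 and 0.179 normalized counts in exposed embryos and 0.0212, 0.324, 0, 0.360 and 0 in vehicle embryos, and the macrophage chemokine gene Ccl3 at 1.18, 9.08, 0.792, 2.54 and 2.15 against 3.74, 2.37, 0.670, 1.98 and 0.555. Exposed embryo C4242.1 was the highest for both, and 262 of the 282 exposed reads of Ccl2 were in it. Among other chemokine genes, the difference was 0.00 (SE 0.54) for Ccl6, 0.33 (SE 0.60) for Ccl12, 0.23 (SE 0.26) for Ccl25, 0.08 (SE 0.28) for Ccl27a and 0.55 (SE 0.34) for Ccl28, while Ccl7, Ccl17 and Ccr7 were below the minimum mean. Without exposed embryo C4242.1 the difference was -0.58 for Ccl6 and -0.29 for Ccl12. Of 14 interferon-stimulated genes, with a median of 0.19 that was 0.06 without vehicle embryo C4605.2 and -0.14 with a minimum mean of 5, 1 was at an unadjusted p under 0.05, beside 1.32% of all genes tested. This count ran from 0 to 3 over the alternatives, and was 3 without vehicle embryo C4232.9. The 1 gene was Bst2, which tethers viruses to the cell surface. Bst2 was at 28.6, 37.3, 46.8, 54.4 and 47.9 against 43.2, 47.1, 71.1, 69.1 and 73.9, lower on the mean with overlapping groups (log2 -0.50, SE 0.22). Xaf1, the member with the lowest difference (-0.62), was at 1.60, 1.79, 35.4, 38.8 and 118 against 1.42, 22.3, 52.4, 37.8 and 77.5. Its lowest values were in the deep libraries of both groups, and without these libraries the difference was 0.34. The cause of its low values there was not tested.

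Among 10 enzymes of DNA methylation and demethylation the median was 0.07 and 0 were at an unadjusted p under 0.05. This median was -0.03 without vehicle embryo D2580.1 and -0.07 with a minimum mean of 5. Dnmt1, the maintenance methyltransferase gene, was at 41.8, 35.3, 56.5, 55.5 and 61.9 normalized counts in exposed embryos and 50.1, 66.2, 65.6, 76.2 and 62.2 in vehicle embryos (log2 -0.37, SE 0.18), and the dioxygenase gene Tet1 at 16.1, 20.01, 19.3, 23.7 and 20.7 against 21.2, 17.9, 50.5, 26.1 and 29.6 (log2 -0.45, SE 0.24). Both were lower on the mean and overlapped, and for Tet1 vehicle embryo C4605.2 was high. Of 35 cell cycle genes 23 were lower with a median of -0.20 and 0 at an unadjusted p under 0.05, and the median was -0.06 without exposed embryo C4228.3. Ccnb2, Pcna and Ccnb1 differed by 0.22 (SE 0.25), 0.25 (SE 0.30) and -0.30 (SE 0.27). Germ cell identity genes had a median of -0.04 over 16 genes, or 0.05 under upper quartile scaling and -0.18 without exposed embryo D2510.2. Of these genes 1, Kit, was at an unadjusted p under 0.05, beside 1.32% of all genes tested, and this count ran from 0 to 2 over the alternatives. Nanos3 and Rhox5 differed by 0.10 (SE 0.34) and 0.12 (SE 0.21).

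**Figure D3:**
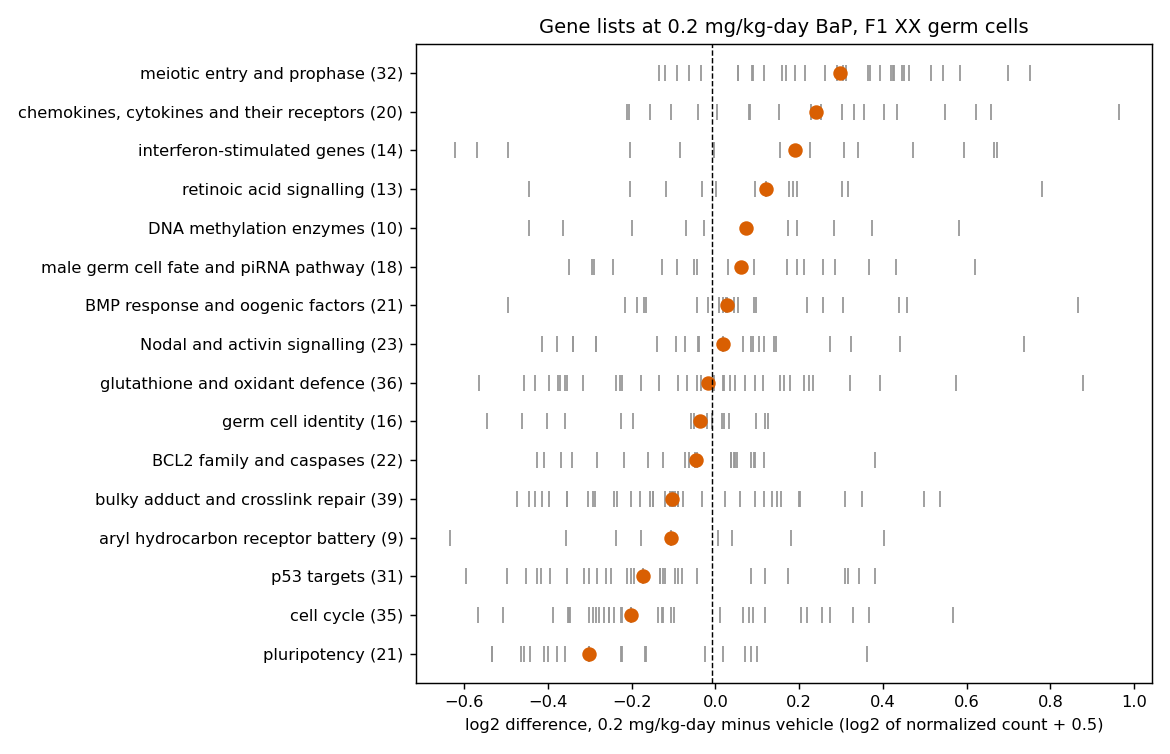
Log2 difference of 0.2 mg/kg-day minus vehicle in F1 XX germ cells for 16 gene lists (number of genes tested in brackets). Ticks are genes, points the medians of the lists, and the dashed line the median of all genes at -0.01. The medians run from -0.30 for pluripotency to 0.30 for meiotic entry and prophase.

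Transcripts of several other cell types were present, and the sum of the stroma genes was higher in every exposed embryo than in the vehicle embryos. Summed over 11 genes of gonadal and mesonephric stroma, the values were 10.7, 7.79, 8.03, 4.79 and 6.44 normalized counts in exposed embryos and 3.14, 1.40, 2.01, 1.17 and 0.972 in vehicle embryos, so that the groups did not overlap. These sums were 307, 492, 71, 34 and 36 reads against 148, 13, 15, 13 and 7. Of the 11 genes 4 reached the minimum mean for a test, and Dcn, Col3a1 and Twist1 were higher at an unadjusted p under 0.05, where 1.32% of all genes tested were at that p. This count of 3 ran from 1 to 4 over the alternatives, apart from a minimum mean of 5, at which 0 stroma genes were tested. The vehicle means of Dcn, Col3a1 and Twist1 (0.381, 0.130 and 0.444) lay under the minimum mean of 0.5. These genes were tested because of higher values in other embryos of the fit. The filter thus favoured the count of 3, and no conclusion is drawn from setting it beside the share over all genes. Dcn, which encodes the matrix proteoglycan decorin and was the most abundant of the list, was at 1.98, 1.90, 1.47, 1.13 and 3.93 against 0.191, 0.108, 1.61, 0 and 0, where vehicle embryo C4605.2 reached the exposed range (log2 1.72, SE 0.52). Collagen gene Col3a1 differed by 1.16 (SE 0.44) and the transcription factor gene Twist1 by 0.66 (SE 0.30). The sort kept EGFP-positive cells, and which cells held these transcripts was not tested. More stromal cells or more RNA per stromal cell cannot be told apart in bulk RNA, and the part of such cells in any other gene was not tested.

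Summed over the 7 genes of the erythroid list, which does not hold Hbb-b1 and Hbb-b2, the values were 22.6, 408, 3.39, 6.48 and 241 normalized counts in exposed embryos and 4.93, 2.81, 1.21, 0.989 and 0.694 in vehicle embryos. Exposed embryos C4242.1 and D2510.2 held most of it, and C4322.4 lay inside the vehicle range. The most abundant were the adult alpha-globin genes Hba-a1 and Hba-a2, near-identical copies whose reads cannot be assigned with certainty, with Hba-a1 at 9.93, 203, 0.678, 2.54 and 119 against 1.55, 0.648, 0, 0.270 and 0.139 (log2 4.12, SE 1.70). Hbb-b1, with values identical to those of Hbb-b2, was at 0.174, 49.2, 0.339, 0.282 and 20.7 against 0.0850, 0, 0, 0 and 0, which rested on 5, 3109, 3, 2 and 116 reads against 4, 0, 0, 0 and 0. The erythroid enzyme gene Alas2, chosen after its values were seen, was at 0 in 2 exposed and 3 vehicle embryos, and the erythroid factor gene Klf1 differed by 0.60 (SE 0.30). Of the 3 genes of this list that were tested, Hba-a1 and Hba-a2 were at an unadjusted p under 0.05, beside 1.32% of all genes tested, and as near-identical copies they are not separate results. This count ran from 0 to 3 over the alternatives.

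Macrophage genes did not separate the groups. Summed over 16 genes they were at 16.2, 248, 15.0, 42.1 and 22.0 normalized counts in exposed embryos and 56.2, 28.4, 37.4, 63.1 and 14.2 in vehicle embryos, with exposed embryo C4242.1 far above all others and C1qb, a complement gene, the most abundant. This embryo was also the one with the most globin, Ccl2 and Ccl3. Of 15 macrophage genes tested 0 were at an unadjusted p under 0.05, and the median was 0.15, or -0.37 without C4242.1. Mast cell genes (3 genes, most abundant Cpa3) summed to 0.590, 13.4, 0, 28.9 and 0 against 0.191, 0.216, 0, 0 and 0, high in exposed embryos C4242.1 and D2506.2 alone. By limma 0 of the 3 were at an unadjusted p under 0.05, and by edgeR's quasi-likelihood test 3 were.

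Supporting cells of the gonad gave overlapping sums. Pregranulosa genes (9 genes, most abundant Gng13) summed to 23.9, 33.1, 56.7, 47.8 and 111 normalized counts against 23.96, 49.1, 49.0, 50.1 and 70.5, and 1 of 7 tested, Rspo1, was higher at an unadjusted p under 0.05 (log2 0.65, SE 0.30), a count that ran from 0 to 2 over the alternatives, beside 1.32% of all genes tested. Sertoli genes (10 genes, most abundant Aard) summed to 86.9, 89.8, 26.2, 25.1 and 31.1 against 35.7, 43.2, 27.5, 22.9 and 24.99, high in the deep exposed libraries, with Aard at 0.52 (SE 0.46) and 0 of 5 at an unadjusted p under 0.05. The Sertoli-defining genes Sox9 and Amh, chosen after their values were seen, had no value above 0.313. Sums ranged from 11.3 to 31.7 in exposed and 15.6 to 31.0 in vehicle embryos for 9 endothelial genes (most abundant Plvap), from 2.40 to 4.34 and 1.95 to 5.28 for 6 fetal Leydig genes (Star), from 21.2 to 47.4 and 23.4 to 45.1 for 5 mesonephric tubule genes (Wfdc2), and from 144 to 201 and 176 to 250 for 7 genes of surface and other epithelium. Most of the last sum was Epcam, which germ cells also express. In these 4 lists 0 genes were at an unadjusted p under 0.05.

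**Figure D4:**
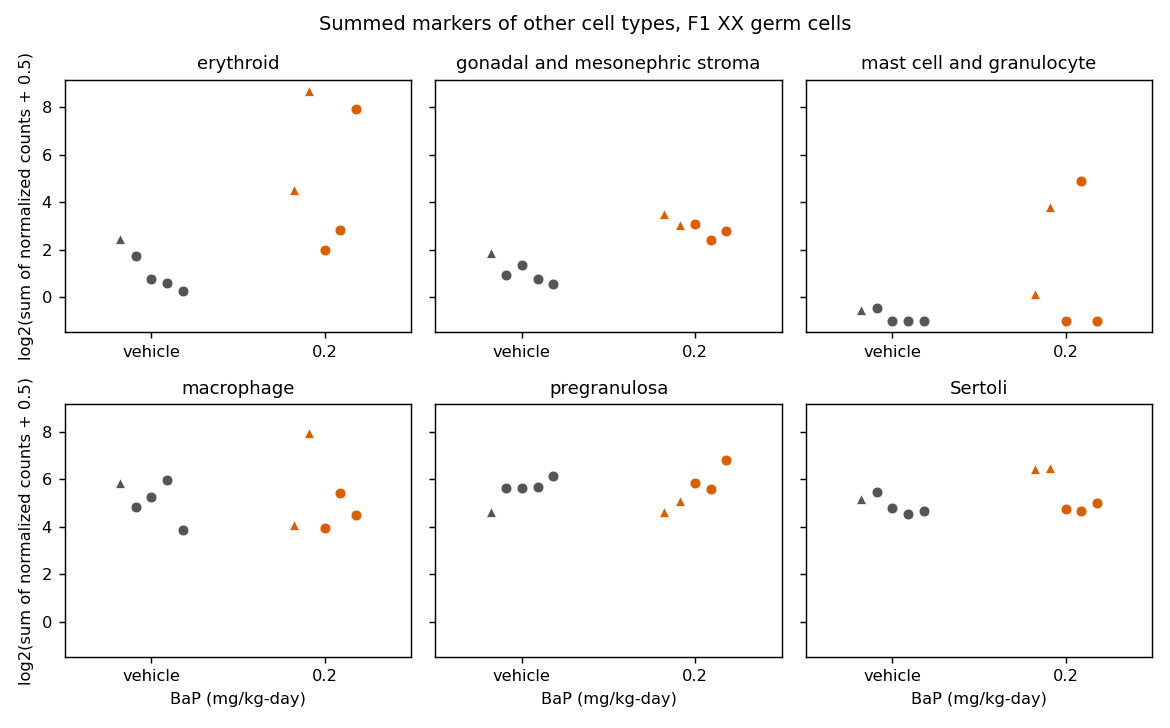
Summed normalized counts of 6 marker lists of other cell types (y axis, log2 of the sum + 0.5) in 5 vehicle and 5 exposed F1 XX embryos. Points are embryos and triangles deep libraries. The stroma sums of the exposed embryos lie between 4.79 and 10.7 normalized counts, above the vehicle embryos at 0.972 to 3.14.

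Ribosomal RNA transcript Rn45s, chosen after its values were seen, was at 107, 151, 307, 497 and 192 normalized counts in exposed embryos and 221, 426, 605, 638 and 392 in vehicle embryos. It was lowest in deep libraries C4228.3 and C4242.1 and the groups overlapped (log2 -0.98, SE 0.39). Carry-over of ribosomal RNA into the cDNA was not tested as a source of other differences.

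Genes that differ between the sexes were taken from 24 vehicle embryos of F2 and F3, which have no sample in common with the comparison. Of 1087 genes higher in XX germ cells by more than 2-fold, 19 were at an unadjusted p under 0.05 in the F1 XX comparison, 16 higher and 3 lower at 0.2 mg/kg-day, with a median log2 difference of 0.10. Of 1019 genes higher in XY germ cells 731 were tested, of which 15 were at an unadjusted p under 0.05, 11 higher and 4 lower, with a median of 0.03. Beside them, 1.32% of all genes tested were at that p. Without vehicle embryo C4232.9 the counts were 113 and 53, and the medians 0.17 and -0.01, beside 724 of the 13376 genes then tested. The XX-higher median was 0.04 without vehicle embryo C4605.2, and with a minimum mean of 5 the counts were 4 and 3.

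In XY littermates and other XY embryos of F1, 111 genes were at an unadjusted p under 0.05 at 0.2 mg/kg-day and 0 passed after adjustment by limma. The difference of the effect between XX and XY germ cells was tested directly, with 0 of 13635 genes past an adjusted p of 0.05 by limma or by edgeR's quasi-likelihood test, and 123 (0.902%) and 187 at an unadjusted p under 0.05. Of the XX embryos 4 exposed and 4 vehicle embryos had a brother among the XY embryos, and with dam as a random block the count by limma was 330, with 0 after adjustment. Kit was at 30.3 ± 5.50 normalized counts in exposed XY embryos (SD, n = 6) and 32.2 ± 17.2 in XY vehicle embryos (n = 5), and the difference of effects was -0.46 (SE 0.33). Epb4.1l4b was at 8.92 ± 1.35 against 7.57 ± 2.67 in XY germ cells, with a difference of effects of -0.79 (SE 0.26), and Mdm4 at 56.0 ± 10.1 against 56.6 ± 15.3, with -0.40 (SE 0.23). In XY germ cells Dcn was at 0.445 ± 0.923 against 1.13 ± 1.36, and its difference of effects was 2.53 (SE 0.84). Each of these had an adjusted p of 0.9998 by limma. The count of 123 was 268 without XY embryo C4228.1, 242 without C4322.4, 308 without C4232.9 and 190 without XY vehicle embryo C4605.1.

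Doses of 2 and 0.2 mg/kg-day were compared directly in XX germ cells, with 5 embryos each. Stra8 was at 63.7, 153, 71.2, 112 and 334 normalized counts in the embryos at 2 mg/kg-day, all under the lowest value of 403 at 0.2 mg/kg-day (log2 -1.93, SE 0.45, adjusted p = 0.183 by limma). Over the genes tested 0 passed after adjustment by limma, and 1760 (13.2%) were at an unadjusted p under 0.05, of which 747 lay higher and 1013 lower at the larger dose, or 886 and 794 under upper quartile scaling. After adjustment edgeR's quasi-likelihood test called 0, its likelihood ratio test 107 and DESeq2 122 genes, and limma called 50 without the embryo at 2 mg/kg-day in which Stra8 was highest, D2587.1. Of the 32 meiotic genes 19 were lower at 2 than at 0.2 mg/kg-day at an unadjusted p under 0.05 with a median of -0.95, and of the 21 pluripotency genes 12 were higher with a median of 0.62. Kit was at 55.0 ± 10.7 at 2 mg/kg-day, and the difference from 0.2 mg/kg-day was 0.51 (SE 0.17, adjusted p = 0.220 by limma). Mgst1 was at 3.84 ± 0.726 at 2 mg/kg-day, with a difference of -0.97 (SE 0.27, adjusted p = 0.204 by limma).

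Against the same vehicle embryos, which all 3 doses share as controls, 45 genes were at an unadjusted p under 0.05 at 0.033 mg/kg-day (2 embryos), 176 at 0.2 and 1599 at 2 mg/kg-day, and 0 passed after adjustment by limma at each dose. The median of the meiotic list was 0.17, 0.30 and -0.83 at these doses, and that of the pluripotency list -0.12, -0.30 and 0.34. The stroma sums lay between 1.03 and 4.08 at 0.033, between 4.79 and 10.7 at 0.2 and between 1.90 and 12.3 at 2 mg/kg-day.

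In later generations at 0.2 mg/kg-day, which have vehicle embryos of their own, Kit, Mdm4 and Asb4 were compared by their means. Kit was at 46.9 ± 2.71 normalized counts in F2 XX embryos (n = 3) against 48.6 ± 11.1 in vehicle embryos (n = 6), and at 62.0 ± 3.31 in F3 (n = 2) against 41.9 ± 4.82 (n = 6). Mdm4 was at 62.9 ± 3.70 against 59.8 ± 9.25 in F2 and 69.0 ± 12.97 against 57.1 ± 7.74 in F3, and Asb4 at 9.87 ± 2.23 against 8.90 ± 2.22 and 10.3 ± 2.76 against 10.4 ± 1.40. The order of the means in F2 was that of F1 for Kit and Asb4 and the reverse for Mdm4. In F3, with 2 exposed embryos, it was the reverse for Kit and Mdm4, and the means of Asb4 were nearly equal. Differences between generations were not tested. After adjustment by limma 0 genes passed in either generation. At an unadjusted p under 0.05 there were 389 of 12784 genes tested in F2 and 1583 of 12938 in F3. The median of the meiotic list was 0.51 in F2 and -1.10 in F3.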

How the data were processed

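Primordial germ cells sorted from 101 single embryos, 1 library each, make up the series, and the report uses 10 of them (5 F1 XX embryos at 0.2 mg/kg-day BaP and 5 vehicle) with other groups beside them. Per the labels, the authors trimmed reads with Trim Galore, aligned them with STAR to GRCm38 (mm10), used Rsubread to count them over exons, and scaled the libraries by TMM in edgeR. The signal values deposited by the authors are these normalized counts, on a scale of counts per 1 M reads, for 15423 genes, of which 19 have a symbol turned into a date. Each column was a multiple of 1 step, and in the 10 embryos 100% of the values under 2000 reads lay within 0.05 of a whole number of reads, so reads were recovered in 99 embryos for the count tests. Depths here are recovered reads summed over the genes of the deposited values, and are not all mapped reads of a library. In the 10 embryos they ran from 6.65 to 64.1 M reads (1 M is 1000000), and the precision is given in the report. The study gives a higher minimum for the uniquely mapped reads of each library.

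Differences were tested on log2(normalized count + 0.5) with limma 3.58.1 in R 4.3.3, in a fit of the 17 F1 XX embryos, for genes with a mean of at least 0.5 normalized counts. Adjusted p values are by the method of Benjamini and Hochberg over all genes tested, with a threshold of 0.05. Counts at an unadjusted p under 0.05 are by limma unless another test is named. edgeR 4.0.16 and DESeq2 1.42.0 were run on the recovered reads, and the code was tested on simulated data, where limma recovered 195 of 200 changed genes with 11 false calls, against 8 false calls for edgeR's quasi-likelihood test, 23 for its likelihood ratio test and 26 for DESeq2. Direct comparisons were the difference of the effect between XX and XY germ cells, fitted over the 38 F1 embryos, and 2 against 0.2 mg/kg-day. Coordinates are from GENCODE vM21.

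Named genes are those past the adjusted threshold, the 12 with the smallest p in each direction whose groups do not overlap and whose mean is at least 5 normalized counts, the 3 most abundant of each list with its members at an unadjusted p under 0.05, and germ cell markers and genes of Nodal signalling, meiosis and chemokines that the study discusses. Genes outside this rule are marked in the report as chosen after their values were seen. The members and the lists were chosen with earlier results of these data known. Alternatives were other pseudocounts, filters, tests and scalings, a term for depth class or for the letter of the dam number, other sets of embryos in the fit, dam as a random block for the difference between the sexes, and each embryo left out. Exposed XY embryos of F2 and F3 and embryos of F2 and F3 at other doses were left out of the text, since they belong to other comparisons.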

Additional observations from a re-analysis of the deposited data

Results flagged for a closer look

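Within groups of 5 embryos, 12 of 102 sets of values (11.8%) held an embryo far from the other 4, where chance sets apart about 1 in 20 sets of independent, normally distributed values. These sets share embryos and hold skewed counts, and a single value above 0 among values of 0 is always set apart, as for Hbb-b1 and the Y-linked genes. In vehicle embryo C4232.9, a deep library, Dazl was at 2251 normalized counts (next 1472), Sycp3 at 2954 (next 864) and Hbb-b1 at 0.0850 (next 0). In vehicle embryo C4605.2, Casp2 was at 24.9 (next 17.4), Cyp1b1 at 3.21 (next 1.44) and Dcn at 1.61 (next 0.191).

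In exposed embryo D2510.2, 1600014C10Rik was at 19.13 (next 13.46) and Zglp1 at 193 (next 146). In exposed embryo C4242.1, a deep library, Ccl3 was at 9.08 (next 2.54), the sum of the macrophage genes at 248 (next 42.1) and Cyp1b1 was low at 0.998 (next 1.97). In vehicle embryo C4321.6 the sum of the Y-linked genes was 0.216 (next 0), which was 2 reads of Uty. The causes were not tested.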

How the results depend on the processing

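In F1 XX germ cells, 0 genes passed after adjustment for 0.2 mg/kg-day against vehicle in all 23 alternatives. The count at an unadjusted p under 0.05 was 176, and ran from 84 (without C4605.2) to 724 (without C4232.9) with 1 embryo left out. It was 86 with a minimum mean of 5, where fewer genes were tested. Without C4232.9, list counts of 0 became 1 for meiotic and cell cycle genes. They became 2 for pluripotency, aryl hydrocarbon receptor and DNA methylation genes. The count of 0 became 1 for the BCL2 family and caspases with a minimum mean of 5. It also became 1 for macrophage genes without C4242.1 and for Sertoli genes without D2506.2. Of 122 named genes tested, 46 had the other sign in at least 1 alternative, and the 16 chosen for groups that do not overlap could not turn with an embryo left out.

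For the difference of the effect between XX and XY germ cells, 0 genes passed after adjustment in all alternatives. The unadjusted count of 123 was 57 with a minimum mean of 5, 187 with edgeR's quasi-likelihood test and 330 with dam as a random block, and ran from 86 (without C4605.2) to 308 (without C4232.9). For 2 against 0.2 mg/kg-day the adjusted count of 0 became 15 with depth class as a term, 107 with edgeR's likelihood ratio test and 122 with DESeq2, and ran from 0 to 50 (without D2587.1) with 1 embryo left out. The unadjusted count of 1760 was 1087 with a minimum mean of 5, 798 without the deep libraries and 2596 with depth class as a term, and ran from 1183 (without C4242.1) to 2364 (without D2510.2). The cause was not tested for these changes, apart from the fewer genes or embryos in the fit.

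Genes under 1 normalized count rested on few reads in the 7 shallower libraries. No paired analysis was possible because the 10 embryos came from 10 different dams and the labels give no pairs or batches.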
